A study of Mus musculus with 12 samples.

Results

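Microvillus core and adhesion genes encode the proteins that build, anchor and space the finger-like projections of the intestinal brush border. The set was named by gene symbol, and earlier results of these data were known when it was chosen. It held 10 genes of the 30265 in the deposited table: Vil1, Pls1, Espn, Eps8, Ezr, Myo1a, Cdhr2, Cdhr5, Ush1c and Myo7b. RNA of mouse intestinal epithelium (strain C57Bl/6) was sequenced after cells carrying a Sox9-GFP reporter had been sorted into the gates Sox9 High, Sox9 Negative, Sox9 Sublow and Sox9 Low. In published work with this reporter, High has been described as rich in enteroendocrine and tuft cells, Negative in differentiated cells, Sublow in progenitors and Low in cycling stem cells. Replicates A, B and C gave 3 libraries for every gate. A library was made from total RNA of 12000 cells after ribosomal depletion with a Clontech SMARTer Pico v2 kit, and was read from a single end. All gates shared the strain and the reporter, no sample without the reporter was analysed here, and the labels give no age or treatment. Whether replicates are separate animals is not stated in the labels, so the spread behind each p-value is that between these samples and may be technical.

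A microvillus is a membrane finger around a bundle of parallel actin filaments. Villin, plastin 1 and espin cross-link the filaments, Eps8 acts at their tips, and ezrin and myosin 1a tie the bundle to the membrane. Neighbouring microvilli are joined at their tips by threads of the protocadherins Cdhr2 and Cdhr5, which are held inside the cell by a complex of the scaffold Ush1c (harmonin), the motor Myo7b and their partners Anks4b and Calml4. Enterocytes carry a dense brush border of such microvilli, and tuft cells carry a small apical tuft of long, stiff ones.

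Libraries held between 11.6 and 17.0 M reads (M, 1e6) assigned to genes, and a floor of 3 reads corresponded to 2.38 to 4.61 normalised read counts. That floor covers counting error only. Sox9 itself followed the gates, with means of 20262 in High, 604 in Negative, 2084 in Sublow and 6601 in Low. Summed tuft cell markers (8 of 8 genes detected) averaged 96736 in High, 103 in Negative, 329 in Sublow and 10307 in Low. Summed enteroendocrine markers (7 of 7) averaged 435946 in High, 894 in Negative, 4728 in Sublow and 55475 in Low. Summed enterocyte markers (8 of 8) averaged 34970.5 in High, 668149 in Negative, 249240.0 in Sublow and 28769 in Low. In bulk libraries, fewer cells of a type and less RNA per cell cannot be told apart. Where values below move with these marker sums, the part of cell composition in them was not tested.

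All 10 genes passed the filter of at least 10 normalised read counts in at least 3 libraries, as did 16577 genes of the table. All 10 differed somewhere among the 4 gates by limma's moderated F-test, as did 69.5% of the genes tested. Together they made up 0.663% ± 0.0272 of all normalised reads in High, 1.35% ± 0.139 in Negative, 0.777% ± 0.349 in Sublow and 0.318% ± 0.0636 in Low (SD, n = 3 libraries). Values are normalised read counts for replicates A, B and C in that order, and log2 differences carry the standard error of a fit of all 12 libraries. That error pools the spread of the 4 gates. Sublow libraries varied most, which can make a p-value that involves Sublow too small.

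**Figure D1:**
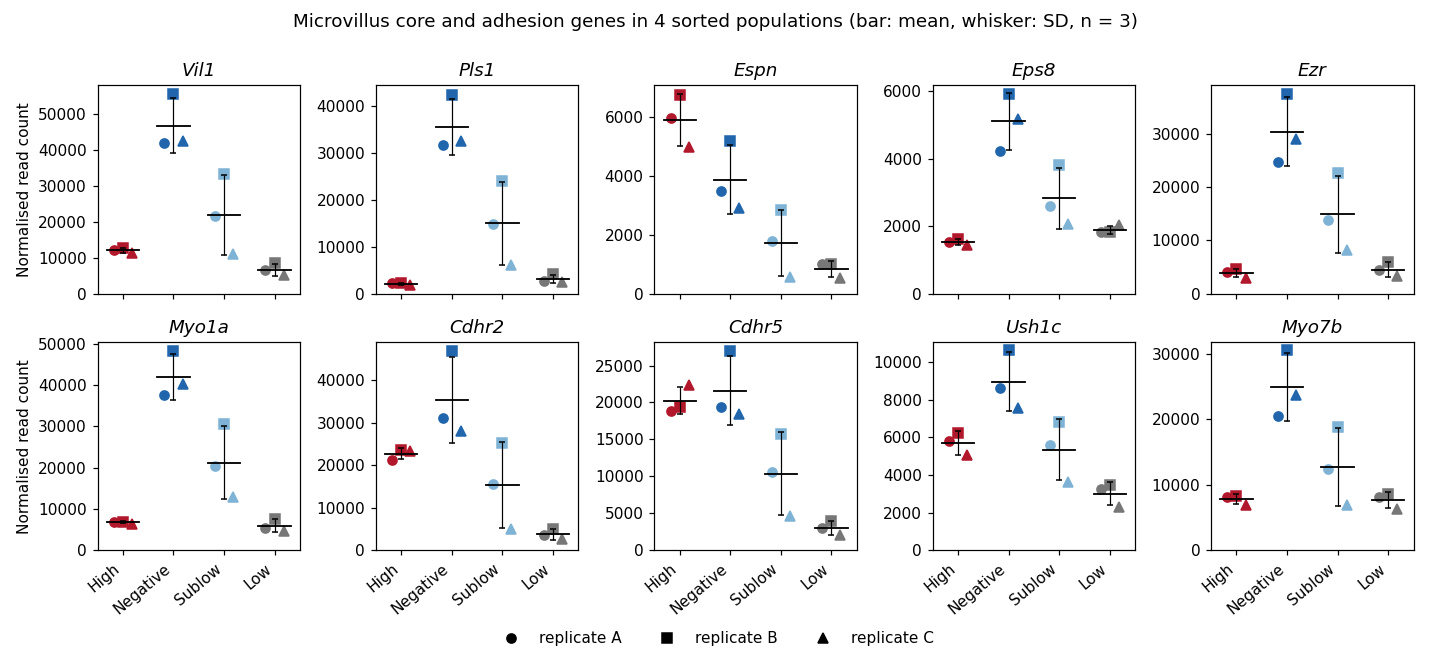
Normalised read count of each of the 10 genes (vertical axis, linear from 0) in the libraries of the 4 gates, with replicates as symbols, the mean as a bar and the SD as a whisker (n = 3). Negative had the highest mean for 9 genes and High for Espn, and within Sublow replicate B was highest and replicate C lowest for all 10.

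The core bundlers did not share 1 pattern across the gates. Vil1, villin, which bundles and severs actin filaments, measured 12077, 12769 and 11406 in High, 42012, 55526 and 42619 in Negative, 21491, 33207 and 10975 in Sublow and 6484, 8398 and 5120.0 in Low. Negative libraries all lay above those of the other gates, and High libraries lay above Low but within the range of Sublow. Negative was 7.09-fold above Low (log2 difference 2.83 ± 0.32, limma adjusted p = 2.12e-05) and High 1.85-fold above Low (0.89 ± 0.32, adjusted p = 0.0418). The call of High over Low was lost on leaving out High A, B or C, Low A or C, Negative A or C, or Sublow A, and with no filter on low values (adjusted p = 0.0509 to 0.146).

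Pls1, plastin 1 or fimbrin, an actin bundler of the brush border, was the gene that set High farthest from Negative. It measured 2184, 2255 and 1917 in High, 31751, 42474 and 32478 in Negative, 14922, 23939 and 6200.3 in Sublow and 2705, 4217 and 2518 in Low. No High library reached any Low library, and the 3 Negative libraries lay above all others. High was 16.7-fold lower than Negative (-4.06 ± 0.38, adjusted p = 1.78e-06) and 6.17-fold lower than Sublow (-2.62 ± 0.38, adjusted p = 9.95e-05). Against Low the difference of High was -0.53 ± 0.38 and was not called (adjusted p = 0.278), although it was called without the Sublow libraries, in the fit of 6 libraries alone and with library weights (adjusted p = 0.0290 to 0.0423).

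Espn, espin, which cross-links filaments into stiff parallel bundles, had its highest mean in High. It measured 5958, 6726 and 4964 in High, 3485, 5186 and 2922 in Negative, 1779, 2829 and 576 in Sublow and 1004, 1006 and 519 in Low. High libraries lay above all of Sublow and Low, while High C lay below Negative B. High was 7.23-fold above Low (2.85 ± 0.47, adjusted p = 0.000438) and 4.09-fold above Sublow (2.03 ± 0.47, adjusted p = 0.00307). High minus Negative was 0.64 ± 0.47 and was not called (adjusted p = 0.274), and it was called with the libraries scaled to the same total (log2 difference 1.13, adjusted p = 0.0429), with library weights (0.75, adjusted p = 0.0434) and in the fit of 6 libraries alone (adjusted p = 0.0301). Sublow minus Low was 0.82 ± 0.47 (adjusted p = 0.235), and was called without Sublow C (1.47, adjusted p = 0.00489) and with library weights (0.96, adjusted p = 0.00483).

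Eps8, which caps and bundles filaments at the microvillus tip, was highest in Negative and lowest in High. It measured 1535, 1612 and 1449 in High, 4228, 5919 and 5191 in Negative, 2592, 3817 and 2058 in Sublow and 1826, 1819.8 and 2022 in Low. The gates did not overlap at any point in the order Negative, Sublow, Low and High. Negative was 2.68-fold above Low (1.42 ± 0.20, adjusted p = 7.46e-05) and High 3.31-fold below Negative (-1.73 ± 0.20, adjusted p = 9.93e-06). Neither High minus Low (-0.30 ± 0.20, adjusted p = 0.239) nor Sublow minus Low (0.53 ± 0.20, adjusted p = 0.0692) was called in the fit of all libraries. Sublow over Low was called with edgeR (0.60), with DESeq2 (0.58), with the replicate letter as a block (0.53), with library weights (0.51) and without Sublow C (0.74). The adjusted p ran from 0.00249 to 0.0455 over these. High below Low was called when only the 6 libraries of both gates were fitted (-0.30, adjusted p = 0.0349).

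The membrane linkers were highest in Negative, and their difference between High and Low was not called. Ezr, ezrin, which binds filaments to membrane proteins when phosphorylated, measured 4002, 4574 and 2984 in High, 24768, 37412 and 28965 in Negative, 13907, 22569 and 8250.4 in Sublow and 4388, 5929.6 and 3239 in Low. High and Low libraries overlapped, and every Sublow and Negative library lay above both. High was 7.89-fold lower than Negative (-2.98 ± 0.33, adjusted p = 8.08e-06), and High minus Low was -0.21 ± 0.33 (adjusted p = 0.646). Myo1a, the brush border myosin that bridges the core bundle to the side of the membrane, measured 6813, 6992 and 6511 in High, 37592, 48294 and 40296 in Negative, 20326, 30566 and 12917 in Sublow and 5403, 7724 and 4744 in Low. Here too High lay within the range of Low and below every Sublow library. High was 6.18-fold lower than Negative (-2.63 ± 0.27, adjusted p = 3.98e-06) and High minus Low was 0.22 ± 0.27 (adjusted p = 0.551).

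The adhesion protocadherins were higher in High than in Low, and their difference between High and Negative was not called in the fit of all libraries. Cdhr2, which extends from one microvillus tip to meet Cdhr5 on the next, measured 21199, 23584 and 23278 in High, 31013, 46742 and 27995 in Negative, 15615, 25225 and 5108 in Sublow and 3692, 5142 and 2584 in Low. High libraries all lay below Negative and far above Low, and Sublow spanned from the Low range to above High. High was 6.19-fold above Low (2.63 ± 0.46, adjusted p = 0.000650). High minus Negative was -0.60 ± 0.46 (adjusted p = 0.291), and its sign turned under quantile scaling (0.41). In a fit of the 6 libraries of both gates alone, Cdhr2 was called lower in High (adjusted p = 0.0287).

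Cdhr5, its partner with a mucin-like stretch, measured 18898, 19436 and 22305 in High, 19436, 26958 and 18446 in Negative, 10654, 15804 and 4657 in Sublow and 3045, 3998 and 2128 in Low. High and Negative overlapped, and every High library lay above every Sublow and Low library. High was 6.81-fold above Low (2.77 ± 0.37, adjusted p = 9.69e-05) and 2.19-fold above Sublow (1.13 ± 0.37, adjusted p = 0.0210). The call over Sublow ended without High C (adjusted p = 0.0643) or without Sublow C (log2 difference 0.64, adjusted p = 0.0631). High minus Negative was -0.08 ± 0.37 (adjusted p = 0.872), and was positive with the same total (0.41), with quantile scaling (0.81) and without Negative B (0.09).

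The cytoplasmic complex that holds the protocadherins did not move as a unit. Ush1c measured 5801, 6246 and 5037 in High, 8600.1, 10642 and 7571 in Negative, 5581, 6809.8 and 3608 in Sublow and 3267, 3478 and 2308 in Low. High and Sublow overlapped, and both lay between Negative and Low. High was 1.91-fold above Low (0.93 ± 0.23, adjusted p = 0.00623). High was 1.56-fold below Negative (-0.64 ± 0.23, adjusted p = 0.0328), a call lost without High A or C, without Negative A or B, with edgeR and under both other scalings (adjusted p = 0.0505 to 0.954).

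Myo7b, the motor that carries the complex to the tip, measured 8202, 8335 and 6922 in High, 20482, 30583 and 23639.8 in Negative, 12459, 18757 and 6849.7 in Sublow and 8199, 8589.5 and 6326 in Low. Negative stood apart from the other 3 gates, which overlapped. Negative was 3.21-fold above Low (1.69 ± 0.30, adjusted p = 0.000397) and High 3.15-fold below Negative (-1.66 ± 0.30, adjusted p = 0.000407). High minus Low was 0.03 ± 0.30 (adjusted p = 0.949), a value so near 0 that its sign turned with the same total, quantile scaling and library weights.

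The comparison of Negative with Low set the differentiated gate against the stem-rich gate, and all 10 genes were higher in Negative. The median log2 difference of the 10 was 2.80, against -0.05 over all genes tested, and 26.8% of all genes were called higher and 30.3% lower. With the libraries scaled to the same total, which moved the median of all genes to -0.60, these shares were 14.7% and 48.6%. Pls1 had the widest difference (11.5-fold, log2 difference 3.52 ± 0.38, adjusted p = 1.49e-05), followed by Cdhr2 (9.38-fold, 3.23 ± 0.46). Cdhr5, Myo1a, Vil1 and Ezr lay between 6.83 and 7.20-fold, and Espn at 4.65-fold. Myo7b, Ush1c and Eps8 lay between 2.68 and 3.22-fold. The 10 calls held in each of the 25 alternatives run. Enterocyte markers averaged 668149 in Negative and 28769 in Low, and Paneth cell markers 70905 in Negative and 24395 in Low. Lower in Negative were the sums of stem cell markers (3014 against 71228 in Low), cycling markers (6476 against 34821) and goblet cell markers (82121 against 258427).

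The comparison of High with Low divided the genes. Espn, Cdhr5, Cdhr2, Ush1c and Vil1 were higher in High, while Pls1, Eps8, Ezr, Myo1a and Myo7b were not called in either direction. That was 5 of 10 called higher, against 23.6% of all genes. In the main limma fit, with edgeR, with DESeq2 or at an unadjusted p under 0.05, 0 of 10 were called lower, against 19.3%. Other limma fits did call genes lower in High. These were Pls1 and Eps8 with the 6 libraries alone, and Pls1 with library weights or without the Sublow libraries. The median log2 difference of the 10 was 0.55, against 0.10 over all genes. All 3 genes past 6-fold (Espn, Cdhr5 and Cdhr2) kept their calls in every alternative, whereas Vil1 did not. Enterocyte markers overlapped between both gates, at 30884 to 43141 in High and 19119 to 47514 in Low. Tuft markers ran from 95286 to 97564 in High and from 8184 to 13829 in Low. Enteroendocrine markers ran from 335036 to 541178 in High and from 36448 to 72965 in Low.

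**Figure D2:**
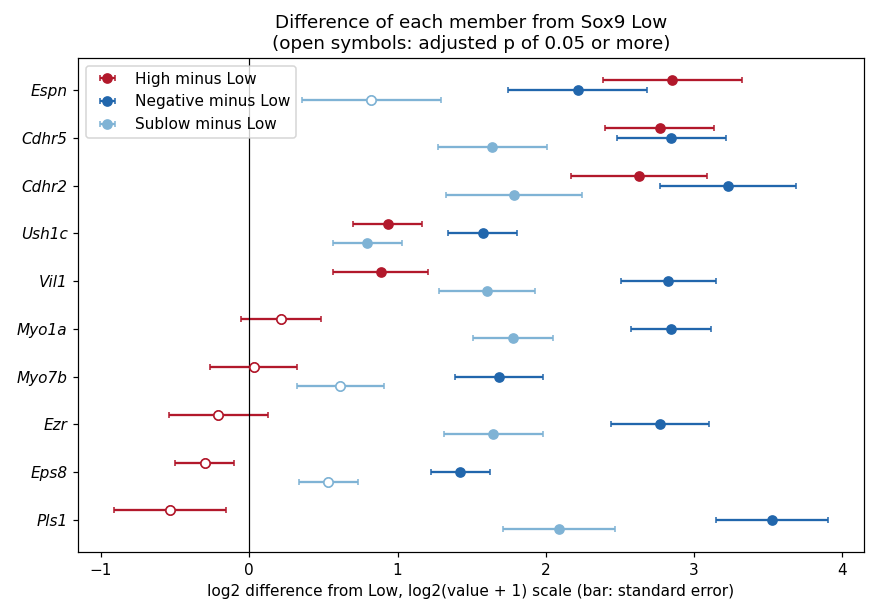
Log2 difference from Low (horizontal axis, log2 of the value plus 1) of each gene in High, Negative and Sublow, with the standard error as a bar and open symbols where the adjusted p was 0.05 or more. Negative lies between 1.42 and 3.52 for all 10 genes, while High spreads from -0.53 for Pls1 to 2.85 for Espn.

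The comparison of High with Negative set the gates with the most and the least Sox9 against each other. Lower in High were 7 of 10 genes, against 25.8% of all genes. In the main limma fit, with edgeR, with DESeq2 or at an unadjusted p under 0.05, 0 of 10 were higher in High, against 28.8%. The 7 were Pls1, Ezr, Myo1a, Vil1, Eps8, Myo7b and Ush1c, and those not called in the main fit were Espn, Cdhr2 and Cdhr5. Espn was called higher with the same total, with library weights and with the 6 libraries alone. Cdhr2 was called lower with the 6 libraries alone. The median log2 difference of the 10 was -1.69, against 0.03 over all genes. With the same total, 44.8% of all genes were higher and 15.6% lower, and the median of all genes was 0.50. As a percentage of its own mean in Negative, the mean in High was 152% for Espn, 93.5% for Cdhr5, 64.4% for Cdhr2 and 63.7% for Ush1c. It was 31.4% for Myo7b, 30.0% for Eps8, 25.9% for Vil1, 16.1% for Myo1a, 12.7% for Ezr and 5.96% for Pls1.

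Ratios of genes within a library do not change when the whole library is scaled by a single factor. Quantile scaling is not of that kind and can change them. Cdhr2 over Pls1 ran from 9.71 to 12.1 in High, from 0.862 to 1.10 in Negative, between 0.824 and 1.05 in Sublow and between 1.03 and 1.37 in Low. For this pair the High libraries thus stood apart from all 9 others. Espn over Vil1 ran from 0.435 to 0.527 in High, from 0.0686 to 0.0934 in Negative, between 0.0525 and 0.0852 in Sublow and between 0.101 and 0.155 in Low. Pls1 over Vil1 went the other way, at 0.168 to 0.181 in High, 0.756 to 0.765 in Negative, 0.565 to 0.721 in Sublow and 0.417 to 0.502 in Low. Ush1c over Vil1 did not set High apart, at 0.442 to 0.489 in High, 0.178 to 0.205 in Negative, 0.205 to 0.329 in Sublow and 0.414 to 0.504 in Low. Cdhr5 over Cdhr2 stayed within 0.577 to 0.958 across all libraries.

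**Figure D3:**
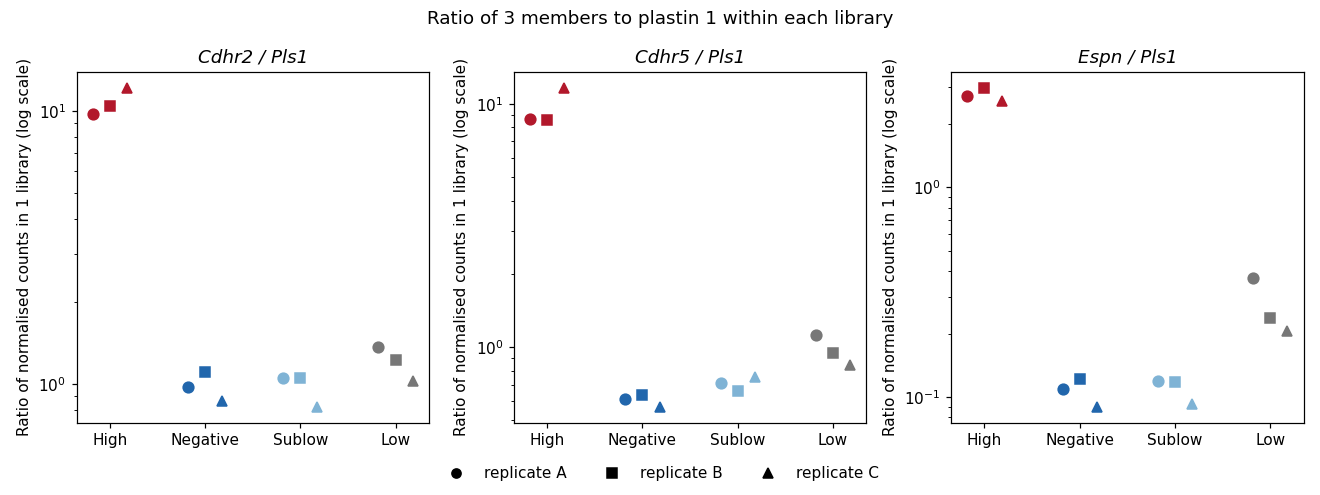
Ratio of the normalised read counts of Cdhr2, Cdhr5 and Espn to that of Pls1 within each library (vertical axes, log scale), by gate, with replicates as symbols. The High libraries lie at 9.71 to 12.1 for Cdhr2, 8.62 to 11.6 for Cdhr5 and 2.59 to 2.98 for Espn, above every library of the other gates.

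The mean in Sublow lay between those in Negative and Low for all 10 genes, with wide spread among its libraries. Against Low, 7 of 10 genes were higher in Sublow, against 13.3% of all genes, and 0 were lower with limma, edgeR, DESeq2 or at an unadjusted p under 0.05, against 10.7%. The 7 were Pls1, Cdhr2, Myo1a, Ezr, Cdhr5, Vil1 and Ush1c, and the median log2 difference of the 10 was 1.62, against -0.06 over all genes. With the same total, 7.88% of all genes were higher and 19.7% lower (median -0.33). Cdhr2 lost its call without Sublow A or B or Low C and in the fit of the 6 libraries alone. Ush1c lost it without Sublow A or B or Low A or C, with the same total, with quantile scaling and in the fit of 6 libraries (adjusted p = 0.0525 to 0.111 over the losses of both genes). Myo7b was called higher with library weights (0.64, adjusted p = 0.00404) and without Sublow C (adjusted p = 0.00494). Sublow means were 42.2% to 59.7% of the Negative means.

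Negative against Sublow gave 10 of 10 genes higher in Negative, with log2 differences of 0.78 for Ush1c to 1.44 for Cdhr2. Of all genes, 12.7% were called higher and 15.1% lower, and the median of the 10 was 1.17, against 0.04 over all genes. With the same total these shares were 3.68% and 23.1% (median of all genes -0.23), and with quantile scaling 7.06% and 12.9%. The count was 1 of 10 without Negative B, 4 without Sublow C, 5 without Sublow A and 6 without Negative C. It was 1 of 10 under quantile scaling, 5 with edgeR or the same total, and 0 when only the 6 libraries concerned were fitted, a fit that called 46 genes in all. The step from Sublow to Negative differed from the step from Low to Sublow in 0 of 10 genes with limma, edgeR, DESeq2 or at an unadjusted p under 0.05, and 0.507% of all genes were called higher and 0.308% lower.

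High against Sublow gave 2 genes higher in High (Espn and Cdhr5), against 26.7% of all genes, and 4 lower (Pls1, Ezr, Myo1a and Eps8), against 25.3%. The median of the 10 was -0.65, against 0.03 over all genes. With the same total, 32.8% of all genes were higher and 19.1% lower (median 0.22). Cdhr2 (log2 difference 0.84 ± 0.46, adjusted p = 0.143) was called higher without Sublow B (1.34, adjusted p = 0.0167) and with quantile scaling (1.43, adjusted p = 0.0110). It was also called higher with the replicate letter as a block (adjusted p = 0.04745). Vil1 was called lower with edgeR (-0.85), with DESeq2 (-0.86), with the replicate block (-0.72), with library weights (-0.83) and without Sublow C (-1.15). Its adjusted p ran from 0.000636 to 0.0430 over these. Myo7b was called lower with DESeq2 (-0.70), with the replicate block (-0.59), with library weights (-0.66) and without Sublow C (-0.97). Its adjusted p ran from 0.00163 to 0.0429 over these.

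Within gates the 10 genes moved together from library to library. Sublow B held the highest value and Sublow C the lowest for 10 of 10 genes, Negative B the highest for 10, High B for 9 and Low B for 9. The highest library exceeded the lowest by 1.07 to 1.53-fold in High (median over genes 1.18), 1.29 to 1.77-fold in Negative (1.43), 1.86 to 4.94-fold in Sublow (2.88) and 1.11 to 1.99-fold in Low (1.66). Summed enterocyte markers moved the same way in Sublow, at 218433 in A, 454032 in B and 75255 in C. They were also highest in replicate B of Negative (857773, against 556822 in A and 589852 in C) and of Low (47514, against 19675 in A and 19119 in C). The part of these markers in the members' spread was not tested.

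The 10 genes fell into 4 orders of their means. Vil1, Myo1a and Myo7b ran Negative, Sublow, High and Low from highest to lowest. Pls1, Eps8 and Ezr ran Negative, Sublow, Low and High. Cdhr2, Cdhr5 and Ush1c ran Negative, High, Sublow and Low, and Espn ran High, Negative, Sublow and Low. Neighbours in these orders whose difference was not called were High and Low for Pls1, Eps8, Ezr, Myo1a and Myo7b, Sublow and High for Vil1, Myo7b, Cdhr2 and Ush1c, Negative and High for Espn, Cdhr2 and Cdhr5, and Sublow and Low for Espn and Eps8.

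Likeness between genes was described by Pearson's r over the 12 libraries of log2 values, which share gates and depth and so carry no p. Of the 45 pairs, the closest were Pls1 with Ezr (0.992), Ezr with Myo1a (0.988) and Cdhr2 with Cdhr5 (0.987). The loosest were Pls1 with Espn (0.172) and Espn with Eps8 (0.185). Among 10188 other genes, those nearest to Pls1 were Slc39a4, a zinc transporter, Got1, an aspartate aminotransferase, and Mdh2, the mitochondrial malate dehydrogenase (r = 0.997 to 0.998). Nearest to Espn were the kinesin Kif21b, the prostaglandin transporter Slco2a1 and Abcb10 (0.992 to 0.995), and nearest to Cdhr2 were Plekhg6, Dock8 and Prss30 (0.993 to 0.994). Slc9a3r1, the scaffold known to bind ezrin, was the third nearest gene to Vil1 (0.996), and Cyb5r3 was nearest to the mean of the 10 (0.998).

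Because longer transcripts collect more reads, levels of different genes were set side by side per kilobase of annotated transcript. In High, Cdhr5 was highest at 9476 normalised reads per kilobase, followed by Cdhr2 at 5495, Vil1 at 3868, Myo1a at 1969, Ush1c at 1854, Espn at 1727, Ezr at 1218, Myo7b at 1181, Pls1 at 572 and Eps8 at 335. In Negative, Vil1 was highest at 14950.0, followed by Myo1a at 12230.0 and Cdhr5 at 10130.0, with Espn at 1135 and Eps8 at 1119 lowest. Per kilobase of coding sequence the first places in Negative went to Vil1 at 18830.0 and Pls1 at 18820.0, so the order there depends on the length used. Exons of Vil1, Ezr and Ush1c overlap a gene on the other strand by 49, 4 and 120 bases, and the files do not say whether strand was used in counting.

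The closest pairs that have no gene in common, Pls1 with Ezr and Cdhr2 with Cdhr5, are shown with the 250 bases before their RefSeq start sites, since the first pair was low in High and the second high there. The windows are on GRCm38.p6, at chr13:54701213-54701462 for Cdhr2 (plus strand), chr7:141276787-141277036 for Cdhr5 (minus), chr9:95845280-95845529 for Pls1 (minus) and chr17:6782781-6783030 for Ezr (minus), written 5′ to 3′. Capitals mark matches, on either strand, to letters associated with factors of the gut epithelium: CAAAGTC for HNF4 factors, CAATAAA and its core TTTAT for CDX factors, GATAA for the zinc finger factors Gata4 to Gata6, CACCC for KLF factors, GGAAGT for ETS factors such as Elf3, and TATAAA for the box near many start sites. Both CAATAAA and TATAAA contain the reverse complement of TTTAT.
Cdhr2: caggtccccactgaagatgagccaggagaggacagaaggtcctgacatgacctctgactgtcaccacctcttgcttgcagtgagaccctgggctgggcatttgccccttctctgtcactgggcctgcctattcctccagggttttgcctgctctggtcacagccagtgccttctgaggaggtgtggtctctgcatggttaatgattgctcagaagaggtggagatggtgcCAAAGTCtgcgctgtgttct
Cdhr5: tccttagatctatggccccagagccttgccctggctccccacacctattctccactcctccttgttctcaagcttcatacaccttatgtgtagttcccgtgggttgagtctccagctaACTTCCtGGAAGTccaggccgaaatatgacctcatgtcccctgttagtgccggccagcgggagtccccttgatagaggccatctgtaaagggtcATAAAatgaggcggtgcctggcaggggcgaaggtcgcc
Pls1: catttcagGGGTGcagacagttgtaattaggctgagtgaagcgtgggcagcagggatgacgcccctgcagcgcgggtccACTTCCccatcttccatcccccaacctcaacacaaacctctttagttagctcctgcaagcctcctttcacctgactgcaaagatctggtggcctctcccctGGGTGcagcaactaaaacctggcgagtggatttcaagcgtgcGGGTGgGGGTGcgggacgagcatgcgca
Ezr: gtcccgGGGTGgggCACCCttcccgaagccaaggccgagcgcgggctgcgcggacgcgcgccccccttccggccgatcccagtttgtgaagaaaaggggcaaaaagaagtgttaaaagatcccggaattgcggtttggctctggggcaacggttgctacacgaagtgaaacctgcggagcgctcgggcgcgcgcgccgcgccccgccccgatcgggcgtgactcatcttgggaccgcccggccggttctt

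Of these windows, only that of Cdhr2 held the HNF4 letters, with the first base 20 bases before the start site, and 3.84% of the 32817 RefSeq windows of the same length held them. Cdhr5 held the ETS letters at 132 and 125 bases, which 19.7% of windows hold, and the CDX core at 38 bases, which 37.3% hold. Pls1 held the KLF letters at 4 places and the ETS letters at 1, and Ezr held the KLF letters at 2, which 52.0% of windows hold. None of the 4 held CAATAAA (4.20% of windows), GATAA (22.6%) or TATAAA (12.4%). A match describes these letters only. Windows were found for 8 of the 10 genes, and those of Vil1, Espn, Myo1a and Ush1c held no HNF4 letters either.

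Other genes of the microvillus were read from lists of known function. Of 8 partners of the adhesion complex, 3 were lower in High than in Negative (25.8% of all genes tested were), 2 were higher (28.8% were) and 3 were not called. With the same total these shares over all genes were 15.6% and 44.8%. The median log2 difference of the 8 was 0.18, against 0.03 over all genes. Anks4b, the scaffold that binds Ush1c and Myo7b, measured 2150.4 ± 76.0 in High and 5314 ± 907 in Negative (SD, n = 3 each; log2 difference -1.29 ± 0.26, adjusted p = 0.00111). Calml4, a light chain of Myo7b, measured 2291 ± 783 in High and 4516 ± 934 in Negative (adjusted p = 0.0207), a call lost without High C or Negative B and under both other scalings. Myo7a, the Myo7b relative best known from hair cells of the inner ear, was also lower in High (1269.7 ± 136 against 5115 ± 222, adjusted p = 3.19e-05).

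Higher in High were Whrn, whirlin, a scaffold related to Ush1c, and Cdh23, a cadherin of hair cell tip links. Whrn measured 1720.2 ± 169 in High and 225 ± 53.0 in Negative (7.73-fold, adjusted p = 1.12e-07). Cdh23 measured 152 ± 21.8 in High and 16.6 ± 6.94 in Negative (9.06-fold, adjusted p = 2.68e-06).

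Among the membrane linkers and scaffolds, 4 of 15 were lower in High than in Negative, a share near the 25.8% of all genes, and 6 were higher, against 28.8% (median 0.64, against 0.03). Rdx, radixin, of the same protein family as ezrin, measured 485 ± 46.8 in High, 12.5 ± 2.94 in Negative, 11.9 ± 4.98 in Sublow and 25.6 ± 7.67 in Low. High was thus 36.5-fold above Negative (log2 difference 5.19 ± 0.33, adjusted p = 7.53e-08), where Ezr was 7.89-fold below.

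Lower in High were the ezrin-binding scaffold Slc9a3r1, its relative Pdzk1 and the ezrin kinase Stk10. Pdzk1 measured 137 ± 72.5 in High and 4906 ± 1414 in Negative (38.4-fold lower, adjusted p = 4.60e-05). Slc9a3r1 measured 3383 ± 428 in High and 18952 ± 3884 in Negative (5.56-fold lower, adjusted p = 0.000137). Stk10 was also lower (log2 difference -4.46 ± 0.64, adjusted p = 7.10e-05).

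Among 12 bundlers and villin relatives, 11 passed the filter, of which 5 were higher in High than in Negative, against 28.8% of all genes, and 3 lower, a share near the 25.8% of all genes (median 1.34). Avil, advillin, a villin relative used as a tuft cell marker, measured 16026 ± 139 in High, 26.6 ± 17.7 in Negative, 90.6 ± 58.4 in Sublow and 1971 ± 532 in Low. Pls3, a second plastin, measured 651 ± 86.8 in High and 38.2 ± 11.8 in Negative (17.1-fold, adjusted p = 5.13e-06), where Pls1 was 16.7-fold lower. Other relatives did not show this opposition. Scin measured 1951 ± 246 in High and 5500 ± 1397 in Negative, and Gsn 548 ± 82.1 and 847 ± 62.1, both lower in High as Vil1 was. The plastin Lcp1 measured 490 ± 6.18 in High and 433 ± 35.9 in Negative. Actn1, an alpha-actinin, was higher in High (log2 difference 2.76 ± 0.27, adjusted p = 2.83e-06), and its relative Actn4 was lower (-2.19 ± 0.21, adjusted p = 2.21e-06). The calls of Rdx, Avil, Pls3, Actn1 and Actn4 held in each of the 25 alternatives run. Summed tuft markers were 96736 in High and 103 in Negative, and summed enteroendocrine markers were 435946 in High and 894 in Negative. The part of either in these differences was not tested.

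**Figure D4:**
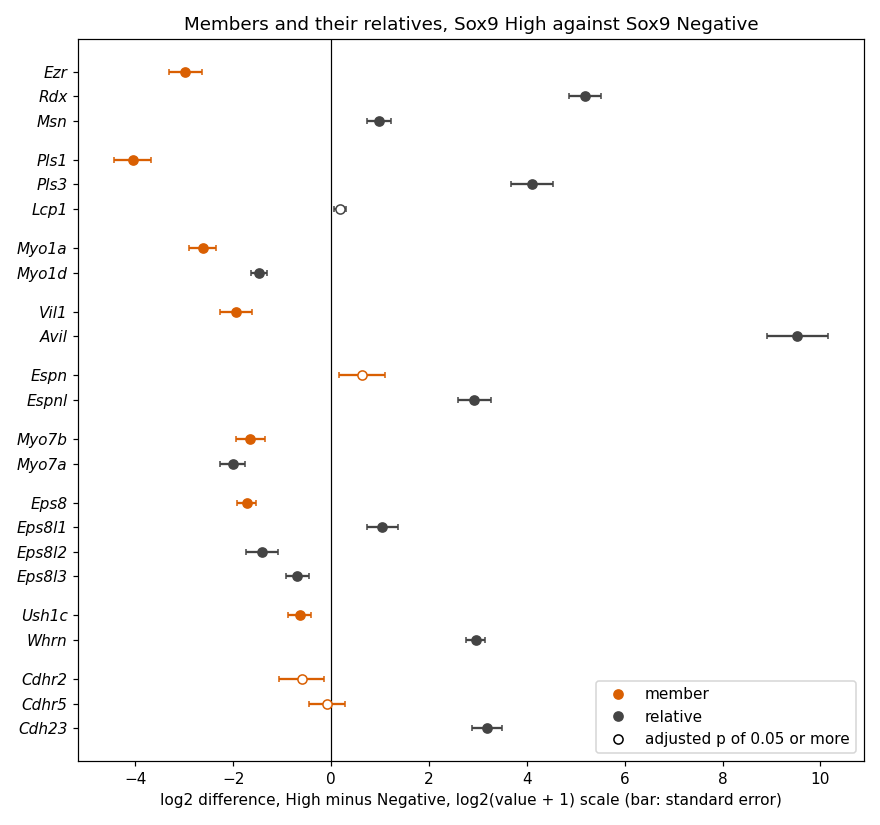
Log2 difference of High minus Negative (horizontal axis, log2 of the value plus 1) for members and their relatives, grouped by family, with the standard error as a bar and open symbols where the adjusted p was 0.05 or more. Ezr (-2.98), Pls1 (-4.06), Myo1a (-2.63) and Vil1 (-1.94) lie left of 0 while Rdx (5.19), Pls3 (4.10) and Avil (9.53) lie right of it. Not every relative lies opposite its member. Myo1d, Myo7a, Eps8l2 and Eps8l3 lie left of 0, as do Myo1a, Myo7b and Eps8. Scin and Gsn, whose means were lower in High as that of Vil1 was, are not drawn.

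Among 13 genes of tip and actin assembly, 11 were lower in High than in Negative, against 25.8% of all genes, and 2 were higher, against 28.8% (median -0.69). Cobl, cordon-bleu, an actin nucleator at the base of microvilli, measured 656 ± 90.0 in High, 14621 ± 3292 in Negative, 5898 ± 3497 in Sublow and 1465 ± 392 in Low. Eps8l2, a relative of Eps8, was 2.65-fold lower in High (-1.41 ± 0.33, adjusted p = 0.00268). Tmigd1, an adhesion protein of the brush border, was 11.9-fold lower (-3.57 ± 0.35, adjusted p = 2.52e-06). Against Low, 10 of these 13 were higher in Negative and 1 lower, against 26.8% and 30.3% of all genes.

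Of 14 terminal web and apical transport genes, 9 were lower in High than in Negative, against 25.8% of all genes, and 2 higher, against 28.8% (median -0.68). Of 5 other cadherin-related genes 3 passed the filter. Among these, 1 was higher in High than in Negative, against 28.8% of all genes, and 2 were lower, against 25.8%. Cdh17, the liver-intestine cadherin, was 3.03-fold lower in High than in Negative (-1.60 ± 0.17, adjusted p = 4.57e-06), and Cdh1, E-cadherin, differed by -0.34 ± 0.12 (adjusted p = 0.0336), a call that was lost or turned in 9 of 25 alternatives. Cdhr3, a little expressed relative of Cdhr2, averaged 22.8 ± 11.1 in High, 0 in Negative, 1.39 in Sublow and 0.79 in Low. It passed the filter through the High libraries alone, so its call as higher in High is no independent result. Of 15 transcriptional regulators, not all of them particular to enterocyte differentiation, 10 were lower in High than in Negative, against 25.8% of all genes. Higher in High were 4, a share near the 28.8% of all genes (median of the 15 -0.80). Hnf4g measured 667 ± 67.0 in High, 12168 ± 997 in Negative, 5269 ± 2239 in Sublow and 1117 ± 310.5 in Low. Hnf4a, its relative, measured 5001 ± 480.2 in High and 9999 ± 715 in Negative (adjusted p = 1.80e-05). Against Low, 9 of the 15 were higher in Negative and 3 lower (26.8% and 30.3% of all genes). In High, 5 were lower than in Low, against 19.3% of all genes, and 0 higher with limma, edgeR, DESeq2 or at an unadjusted p under 0.05, against 23.6%.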

How the data were processed

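RNA sequencing of 12 libraries, 3 for each of 4 sorted populations, was analysed from 1 table. The authors deposited a single normalised signal per gene and library. A single step per library divides 100% of the values into whole numbers (tolerance 0.01), so the deposited signal is a read count divided by a size factor. The sources used here name no aligner, counting program, strand setting, genome build or annotation. Dividing by the step gave the read counts.

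The members, the gene lists and the tests were chosen with earlier results of these data known, and they are no independent support. Values were used as log2(value + 1), with genes kept at 10 or more in at least 3 libraries. limma 3.58.1 (R 4.3.3) with a trended prior was fitted to all 12 libraries, with Benjamini-Hochberg adjustment over the 16577 genes and a threshold of 0.05. The limma fit, edgeR and DESeq2 were tested on simulated reads in which all gates had the same spread between libraries. The other alternatives were not tested in this way.

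Alternatives were pseudocounts of 0.5 and 5, a filter on a mean of 50 or none at all, the same total, quantile scaling, median-of-ratios scaling, library weights, the replicate letter as a block, the 6 libraries of a comparison alone, leaving out the Sublow libraries or each library in turn, and count tests on the recovered reads with edgeR 4.0.16 and DESeq2 1.42.0. On these reads edgeR called 7357 genes for High against Low, 9460 for Negative against Low, 4169 for Sublow against Low, 9066 for High against Negative, 8770 for High against Sublow and 3995 for Negative against Sublow. DESeq2 called 7713, 9677, 4756, 9299, 9067 and 5331 in the same order. Median-of-ratios scaling recomputed here gave the same medians as the deposited values.

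The 10 members are always named. Other list genes are named where they are known partners or among the 4 called genes with the largest or smallest log2 differences of a list and comparison, and Hnf4a was added after its values were seen. Values of some list genes are not reported here, although the counts of their lists include them. Nearest genes are the 3 with the highest correlation among genes of mean 100 or more, without predicted genes. Transcript lengths come from GENCODE (GRCm38) and promoter letters from RefSeq (GRCm38.p6). Python 3.11.15, pandas 2.3.3 and matplotlib 3.10.9 were used for summaries.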

Additional observations from a re-analysis of the deposited data

How the results depend on the processing

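Over 1700 member values recomputed under alternatives, 1555 kept their direction and their side of the threshold, 91 lost their call, 29 gained one and 25 changed sign. All 10 calls of Negative over Low, and those of Espn, Cdhr5, Cdhr2 and Ush1c in High over Low, were among those kept in every alternative. The count of members called for Negative over Sublow was 10, and became 5 with the same total, 1 with quantile scaling, 5 with edgeR and 0 with the 6 libraries alone, and 1 to 10 on leaving out single libraries. The causes of these changes were not tested, although the fits of 6 libraries use fewer samples.

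Genes called for Sublow against Low numbered 3979, and 7880.0 with library weights, 2473 with the 6 libraries alone and 2500.0 to 5603 on leaving out single libraries. For Negative against Sublow they numbered 4597, and 6939 with library weights, 46 with the 6 libraries alone and 1729 to 6239 on leaving out single libraries. For the difference between both steps they numbered 135, and 85 with the same total, 421 with DESeq2, 1956 with library weights and 40 to 160.0 on leaving out single libraries.

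Changes of sign touched values that were not called. High minus Low of Myo7b was -0.043 with the same total, -0.12 with quantile scaling, -0.013 with library weights, and -0.11 (without Low C) to 0.11 (without High C) on leaving out single libraries. Ezr ran from -0.43 (without Low C) to 0.0093 (without Low B). High minus Negative of Cdhr5 was 0.41 with the same total, 0.81 with quantile scaling, and -0.18 to 0.090 without Negative C or B, and that of Cdhr2 was 0.41 with quantile scaling. High minus Sublow of Ush1c was -0.12 to 0.34 without Sublow C or B. The difference between both steps, without Sublow C or B, ran from -1.24 to 0.36 for Vil1, -1.73 to 0.22 for Pls1, -0.73 to 1.56 for Espn, -0.050 to 0.84 for Eps8, -1.26 to 0.19 for Ezr, -1.65 to 0.66 for Cdhr2, -1.42 to 0.35 for Cdhr5, -0.53 to 0.38 for Ush1c and -0.32 to 1.14 for Myo7b.

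Same-letter libraries of different gates deviated together with correlations of 0.0521 to 0.341 (18 pairs, mean 0.156). Every library correlated best with its own letter (12 of 12). The 36 pairs of other letters had a mean of -0.08. Deviations were taken from the mean of each gate, which largely fixes that value from the same-letter mean, so it is no separate evidence. What the letters stand for is not stated, so the main fit left them out, although libraries of the same letter deviated together. Its p-values do not take this shared deviation into account. With the replicate block, members called were 5 for High over Low, 10 for Negative over Low and 7 for High below Negative. Negative over Sublow gave 10, and Sublow over Low gave 8, against 7 without the block. High against Sublow gave 9 (3 higher, 6 lower), against 6 without the block (2 higher, 4 lower). Depth did not limit the members, whose values all lay far above the floor of 3 reads, and the number of libraries limits the precision.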
